A study of Mus musculus with 30 samples.

Results

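The genes described here are 36 genes of glycolysis and of the response to low oxygen, taken from a given list of symbols and matched to the Ensembl identifiers of the count files. The list holds glucose transporters, glycolytic enzymes, genes that handle lactate and pyruvate, hypoxia-inducible factors with their hydroxylases, and further targets of these factors. All 36 were found among the 55414 genes of the files, and all 36 were among the 15686 genes with enough reads to be tested. Levels are CPM, the counts scaled to a common library size; they were compared in bone marrow-derived macrophages of mice, each library being bulk polyA RNA. TRα1PV cells came from mice that the labels call transgenic with a mutated thyroid hormone receptor TRα1, and WT cells came from wild-type mice. The PV mutation is known to give a receptor that hardly binds thyroid hormone and acts in a dominant-negative way. M1 cells had received lipopolysaccharide at 20 ng/mL with interferon-γ at 20 ng/mL, M2 cells had received interleukin-4 at 20 ng/mL, and M0 cells were left unstimulated. Every group had 5 libraries, so 30 libraries entered in all. All cells had been grown for 7 days with medium conditioned by L929 cells, a mouse fibroblast line, at 15 or 20%. Which library had which of these doses, the length of stimulation, and the age, sex and zygosity of the mice are not stated in the sources used here. The allele is carried by the whole animal and not by its macrophages alone.

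Glycolysis splits glucose into pyruvate, which is turned into lactate for export or burned in mitochondria. Hypoxia-inducible factors are dimers whose α subunits are marked for destruction by prolyl hydroxylases when oxygen is at hand, and they switch on most glycolytic genes together with genes for vessel growth and matrix. Macrophages stimulated with lipopolysaccharide are known to take up and break down more glucose, and HIF1α protein builds up in them without lack of oxygen.

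The deposited tables held 23015952 to 59086252 reads in genes per library. All 10 macrophage markers checked were present, and the summed CPM of 4 M1 markers was 11494 to 14278 in TRα1PV M1 libraries and 11861 to 13382 in WT M1 libraries, and at most 10.0 in M0 and M2 libraries. The sum of 4 M2 markers was 15049 to 18422 CPM in TRα1PV M2 libraries and 12923 to 15486 CPM in WT M2 libraries, and at most 1081 CPM in M0 and M1 libraries. In M0 these sums did not overlap, at 945 to 1081 CPM in TRα1PV and 534 to 856 CPM in WT. At an adjusted p under 0.05, 2 of these 4 markers were higher and 2 lower in TRα1PV M0 libraries. Of the 4 M1 markers, 2 were lower and 0 higher in TRα1PV M1 libraries. Thra, the gene that encodes the mutated receptor, averaged 56.1 ± 4.03 CPM in TRα1PV M0 libraries and 24.5 ± 1.91 CPM in WT M0 libraries (SD, 5 libraries each), and it was higher in TRα1PV in all 3 states; this count does not tell the mutated from the normal allele. WT M0 replicate 2 stood apart, with 4.56% of its gene reads from mitochondrial genes, while the remaining 4 of that group had 0.921 to 2.07%. Reads outside genes made up 10.3 to 12.4% in TRα1PV M0 libraries and 8.28 to 11.9% in WT M0 libraries. The labels tie the replicate number to a batch or biological replicate and do not say that equal numbers share an animal, so the spread given is that between libraries. In bulk RNA, fewer cells of a type and less RNA per cell cannot be told apart.

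The promoters of the members are shown first, because the hypoxia-inducible factors reach their targets through a short core motif. RefSeq promoter windows on GRCm38.p6, running from 250 bases before the start of a gene to 50 after it, were at hand for 33 of the 36 members, not for Epas1, Slc2a3 and Ndrg1. They were read for ACGTG and GCGTG, the letters of the hypoxia response element core, on both strands. Either core was present in 31 of the 33 members (93.9%), against 46.7% of 27025 genes with a window of this length. Some genes have several windows, and a gene counted when any of them held the letters. Of the 47 windows of the members, 39 held either core (83.0%), against 43.8% of all 32851 windows. For Vegfa, the window at chr17:46025114-46025413 held 2 cores and that at chr17:46032328-46032627 held 0. ACGTG alone was in 24 members (72.7%, against 21.8% of all genes) and GCGTG in 23 (69.7%, against 35.1%). The windows were not matched for base composition, and a match describes letters, not a bound site. The list was given as genes of glycolysis and targets of these factors, so the shares of the cores are a description and test nothing about it. AGGTCA, the half-site of nuclear receptors such as TRα1, was in 7 members (21.2%, against 18.1%). Gpi1 and Tpi1, a hexose phosphate isomerase and the triose phosphate isomerase, held neither core in this window. Shown are windows of 5 members whose transcripts differed between genotypes in M0 and of Tpi1 as the one without a core among such members, 5′ to 3′ on the strand of the gene, with either core in capitals (CACGT and CACGC are the cores on the other strand). Slc2a1 lies at chr4:119108495-119108794, plus strand. Hk3 lies at chr13:55021336-55021635, minus strand. Slc16a3 lies at chr11:120948817-120949116, plus strand. P4ha2 lies at chr11:54100674-54100973, plus strand. Ldha lies at chr7:46845554-46845853, plus strand. This Ldha window held 7 cores over both strands, and its other window, not shown, held 2. Tpi1 lies at chr6:124814109-124814408, minus strand.
Slc2a1: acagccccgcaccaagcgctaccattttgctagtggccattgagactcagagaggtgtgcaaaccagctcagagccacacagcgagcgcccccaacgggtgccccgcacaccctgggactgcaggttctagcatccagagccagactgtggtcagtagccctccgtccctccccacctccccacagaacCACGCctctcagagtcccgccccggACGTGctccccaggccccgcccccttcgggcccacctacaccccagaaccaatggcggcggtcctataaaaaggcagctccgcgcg
Hk3: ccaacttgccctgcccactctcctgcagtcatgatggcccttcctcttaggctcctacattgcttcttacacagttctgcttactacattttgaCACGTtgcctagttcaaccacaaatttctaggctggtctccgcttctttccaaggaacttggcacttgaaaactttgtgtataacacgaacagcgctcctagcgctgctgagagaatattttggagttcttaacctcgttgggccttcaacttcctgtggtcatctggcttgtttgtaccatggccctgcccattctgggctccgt
Slc16a3: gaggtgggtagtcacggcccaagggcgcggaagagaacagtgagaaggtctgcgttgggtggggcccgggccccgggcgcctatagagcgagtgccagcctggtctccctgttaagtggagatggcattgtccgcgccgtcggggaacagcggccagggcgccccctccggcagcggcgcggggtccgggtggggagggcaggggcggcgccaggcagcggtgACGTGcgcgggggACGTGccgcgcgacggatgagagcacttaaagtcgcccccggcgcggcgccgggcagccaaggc
P4ha2: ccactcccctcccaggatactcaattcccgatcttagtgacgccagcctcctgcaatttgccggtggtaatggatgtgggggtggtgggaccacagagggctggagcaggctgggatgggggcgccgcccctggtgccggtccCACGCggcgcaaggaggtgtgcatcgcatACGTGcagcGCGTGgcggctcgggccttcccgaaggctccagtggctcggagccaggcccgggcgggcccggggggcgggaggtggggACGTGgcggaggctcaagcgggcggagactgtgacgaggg
Ldha: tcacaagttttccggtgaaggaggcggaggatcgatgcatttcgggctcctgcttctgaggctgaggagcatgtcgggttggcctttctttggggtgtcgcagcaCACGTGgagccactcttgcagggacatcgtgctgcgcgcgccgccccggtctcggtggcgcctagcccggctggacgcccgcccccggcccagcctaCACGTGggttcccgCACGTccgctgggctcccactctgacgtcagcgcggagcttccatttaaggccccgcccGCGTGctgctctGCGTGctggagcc
Tpi1: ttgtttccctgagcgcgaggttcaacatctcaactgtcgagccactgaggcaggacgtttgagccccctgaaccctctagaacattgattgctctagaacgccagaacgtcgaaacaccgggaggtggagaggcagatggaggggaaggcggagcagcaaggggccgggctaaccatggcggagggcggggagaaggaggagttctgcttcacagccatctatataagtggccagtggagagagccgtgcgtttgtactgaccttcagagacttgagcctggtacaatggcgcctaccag

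In M0 macrophages, 18 of the 36 genes were lower and 1 was higher in TRα1PV than in WT, at an adjusted p under 0.05 by edgeR's quasi-likelihood test with Benjamini-Hochberg adjustment over all genes tested. Of all 15686 genes, 26% were called in either direction, 14% lower and 12% higher. The genes that fell include the glucose transporter Slc2a1, 8 of the 12 genes of the hexose phase, 3 of the 5 of the triose phase, Ldha, the lactate exporter Slc16a3, the hydroxylase Egln3 and the targets Vegfa, P4ha1 and P4ha2. The median log2 fold change of the 36 genes was -0.33, and that of all genes tested was -0.01. Groups did not overlap for 13 genes with every TRα1PV library below every WT library and for 1 gene above, where 6.9% and 5.57% of all genes showed this.

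Slc2a1 encodes GLUT1, the main carrier of glucose into activated macrophages. In M0 it stood at 8.24, 8.52, 7.99, 9.0 and 9.32 CPM in TRα1PV libraries, against 15.4, 14.9, 16.1, 18 and 14.5 CPM in WT libraries. Every TRα1PV library was below every WT library, and the log2 fold change was -0.88 ± 0.10 (± SE; adjusted p = 2.17e-07). The related carrier Slc2a3 (GLUT3) was not called (-0.06, adjusted p = 0.771).

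Hexokinases trap glucose in the cell by phosphorylation, and the 3 genes measured did not move alike. Hk3 was at 96, 105, 94.2, 105 and 91.7 CPM in TRα1PV libraries, against 205, 131, 198, 217 and 190.2 CPM in WT libraries. The groups were apart, the lowest WT library being replicate 2, and Hk3 fell (-0.94 ± 0.10, adjusted p = 2.95e-08, and -1.04 without WT M0 replicate 2). Hk1, the form found in most tissues, fell less (-0.22, adjusted p = 0.00455). Hk2 read 50.9, 55, 52.3, 52.1 and 51.5 CPM in TRα1PV libraries, against 47.9, 54.3, 46.1, 48.9 and 49.5 CPM in WT libraries. Those libraries overlapped, and Hk2 was not called (0.09, adjusted p = 0.574).

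Phosphofructokinase catalyses the committed step, and its activity depends on an activator made and removed by the bifunctional enzymes Pfkfb3 and Pfkfb4. Pfkfb3 stood at 23.1, 21.5, 20.2, 23.9 and 28.7 CPM in TRα1PV libraries, against 42, 39.2, 45.5, 44.9 and 40.6 CPM in WT libraries. All TRα1PV libraries lay below all WT libraries (-0.86 ± 0.09, adjusted p = 1.29e-08). Pfkfb4 was not called (0.11, adjusted p = 0.467). Of the subunits of phosphofructokinase, Pfkl fell (-0.54, adjusted p = 9.97e-05) and Pfkp fell slightly (-0.24, adjusted p = 0.0165), and Pfkm was not called (-0.13, adjusted p = 0.287). The call for Pfkp ended without TRα1PV M0 replicate 5 or WT M0 replicate 1 (adjusted p 0.0508 to 0.0532).

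Aldolases split the hexose bisphosphate, and triose phosphate isomerase brings both products into the same branch. Tpi1 was at 118, 123, 112, 121 and 109 CPM in TRα1PV libraries, against 175, 138, 156, 173 and 154 CPM in WT libraries. No TRα1PV library reached the lowest WT library (-0.45 ± 0.07, adjusted p = 1.68e-05). Aldoa, the main aldolase here, fell (-0.38, adjusted p = 0.00436), with 1 WT library, replicate 2, inside the range of TRα1PV. Aldoc, a minor form, also fell (-0.38, adjusted p = 0.0328), but this call ended without TRα1PV M0 replicate 3, 4 or 5 or WT M0 replicate 4 or 5 (adjusted p 0.0673 to 0.0839). Gpi1 was not called (-0.03, adjusted p = 0.813).

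In the triose phase, which yields ATP and pyruvate, Pkm (pyruvate kinase) gave the smallest p. It was at 427, 449.8, 419.7, 491 and 382 CPM in TRα1PV libraries, against 650.0, 569, 553, 628 and 561 CPM in WT libraries. The groups did not overlap (-0.45 ± 0.07, adjusted p = 1.96e-05). Eno1 (enolase) and Pgam1 (phosphoglycerate mutase) were called lower (-0.34, adjusted p = 0.0191 for Eno1; -0.43, adjusted p = 0.03 for Pgam1), and in both genes WT M0 replicate 2 was the lowest WT library. The Eno1 call ended without TRα1PV M0 replicate 3 or 4 or WT M0 replicate 1 or 4 (adjusted p 0.0536 to 0.0726), and that of Pgam1 without TRα1PV M0 replicate 3 or 4 or WT M0 replicate 1, 3, 4 or 5 (adjusted p 0.0579 to 0.102). Pgk1 (phosphoglycerate kinase) was not called (-0.15, adjusted p = 0.193). Gapdh was not called either (-0.45, adjusted p = 0.319), and its values are uncertain: the gene had 21079 reads over all libraries, against 848075 for Aldoa, and it has many processed copies in the genome. Pgk1, Pgam1, Eno1, Ldha and Aldoa also have near-identical copies, which held between 0 and 3549 reads each over all libraries.

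Lactate dehydrogenase turns pyruvate into lactate, and the A form is the one that hypoxia-inducible factors raise. Ldha read 184, 197, 160.4, 178 and 172 CPM in TRα1PV libraries, against 263, 181, 229.7, 251 and 233 CPM in WT libraries. It was lower in TRα1PV (-0.38 ± 0.08, adjusted p = 0.000942), although WT replicate 2 lay within the TRα1PV range. Slc16a3 encodes MCT4, which exports lactate from glycolytic cells. It was at 23, 23.8, 19.8, 19.8 and 18.4 CPM in TRα1PV libraries, against 40.5, 25.6, 35.6, 40.1 and 30.4 CPM in WT libraries. The groups were apart, again with WT replicate 2 the lowest of its group (-0.72 ± 0.10, adjusted p = 2.39e-06, and -0.81 without that library). Ldhb, Slc16a1 (MCT1) and Pdk1, a kinase that shuts pyruvate dehydrogenase, were not called, at log2 fold changes of -0.18, 0.27 and 0.05.

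Of the genes of the oxygen-sensing factors and their hydroxylases, Egln3 was the one called. Hif1a, the α subunit common to most cells, was at 148, 154, 177, 179 and 164 CPM in TRα1PV libraries, against 138, 251, 151, 125 and 160.4 CPM in WT libraries. The groups overlapped throughout, with the highest value in WT replicate 2, and Hif1a was not called (-0.01 ± 0.13, adjusted p = 0.973, and 0.19 without that library, not called either). Epas1, which encodes HIF2α, was at 6.10, 6.24, 5.39, 5.62 and 7.38 CPM in TRα1PV libraries, against 6.46, 8.68, 6.41, 9.09 and 8.62 CPM in WT libraries. It was not called (-0.36 ± 0.14, adjusted p = 0.0533), and the lowest WT values lay within the TRα1PV range. Epas1 was called lower with the replicate number as a block (-0.35, adjusted p = 0.0406), with a covariate for reads outside genes (-0.45, adjusted p = 0.0314), by DESeq2 and limma-voom, and when TRα1PV M0 replicate 5 or either of WT M0 replicates 1 and 3 was left out. Of the hydroxylases that mark both factors, Egln3 fell at a low level, 0.901 to 1.39 CPM in TRα1PV and 1.33 to 3.17 CPM in WT (-0.94 ± 0.26, adjusted p = 0.00889). Egln1 was not called (-0.20, adjusted p = 0.0826).

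Among the other targets, the largest differences of the list were found. Vegfa, the growth factor that brings in vessels, stood at 56.8, 57.1, 53.3, 53.5 and 63.9 CPM in TRα1PV libraries, against 221, 228, 205, 230.0 and 247 CPM in WT libraries. The highest TRα1PV library was far below the lowest WT library, and Vegfa fell (-1.99 ± 0.13, adjusted p = 3.57e-12). P4ha2, a catalytic subunit of collagen prolyl hydroxylase, read 1.22, 1.65, 1.61, 1.88 and 1.47 CPM in TRα1PV libraries, against 6.85, 4.08, 5.77, 6.35 and 5.61 CPM in WT libraries. It also separated the groups (-1.86 ± 0.13, adjusted p = 8.41e-12). The more abundant subunit gene P4ha1 fell less (-0.33, adjusted p = 0.000269). Ndrg1, a stress gene that hypoxia raises in many cells, went the other way, at 106, 118, 105, 89.9 and 88.4 CPM in TRα1PV libraries, against 75.7, 73.3, 74, 65.8 and 68.9 CPM in WT libraries. All TRα1PV libraries lay above all WT libraries (0.50 ± 0.10, adjusted p = 0.000324). Bnip3, a receptor for removal of mitochondria, Ero1a, an oxidase of the endoplasmic reticulum, and Ankrd37 were not called, nor was Adm, the gene of adrenomedullin, which had 7 reads in all TRα1PV M0 libraries and 13 in all WT M0 libraries.

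Several measures stood beside the M0 calls. With the share outside genes added to the fit as a covariate, 13 members were lower and 2 higher, and 12 of the 18 stayed called; Pgam1, Aldoc, Pfkp, Aldoa, Hk1 and Eno1 did not. The log2 fold changes with the covariate were -0.05 for Pgam1, -0.08 for Eno1, -0.14 for Pfkp and -0.20 for Aldoa, and Ldha stayed called at -0.20 (adjusted p = 0.0279), against -0.43, -0.34, -0.24, -0.38 and -0.38 without it. The covariate also added 2 calls, a lower Epas1 and a higher Pfkfb4 (0.32, adjusted p = 0.0103, against 0.11 without it). WT M0 replicate 2 had the largest share of reads outside genes in its group, 11.9%, with the others at 8.28 to 10.0%. Without that library and without the covariate, 19 were lower and 2 higher. Pgam1 (-0.59), Eno1 and Aldoa (-0.44 each), Aldoc (-0.41), Pfkp (-0.28) and Hk1 (-0.24) were then all called lower, at adjusted p of 0.0181 or less. Of 14 fibroblast and stroma markers, 11 were tested and all 11 of these were lower in TRα1PV; their summed level was 5.37 to 10.1 CPM in TRα1PV and 11.3 to 41.8 CPM in WT, and Lum had no read in WT. The WT library with the lowest sum, replicate 3, was at 11.3 CPM of these markers, still above every TRα1PV M0 library. It had 205 CPM of Vegfa, the lowest value of WT M0, 16.1 CPM of Slc2a1 and 198 CPM of Hk3. These 3 values were also above every TRα1PV M0 library. Of the 12 neutrophil markers tested, 10 were higher and 2 lower, with sums of 283 to 480 CPM in TRα1PV and 357 to 498 CPM in WT, and 3 of 4 endothelial markers tested were higher (sums of 13.9 to 24.3 CPM in TRα1PV and 8.16 to 11.9 CPM in WT). The part of these markers in the results was not tested.

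**Figure D1:**
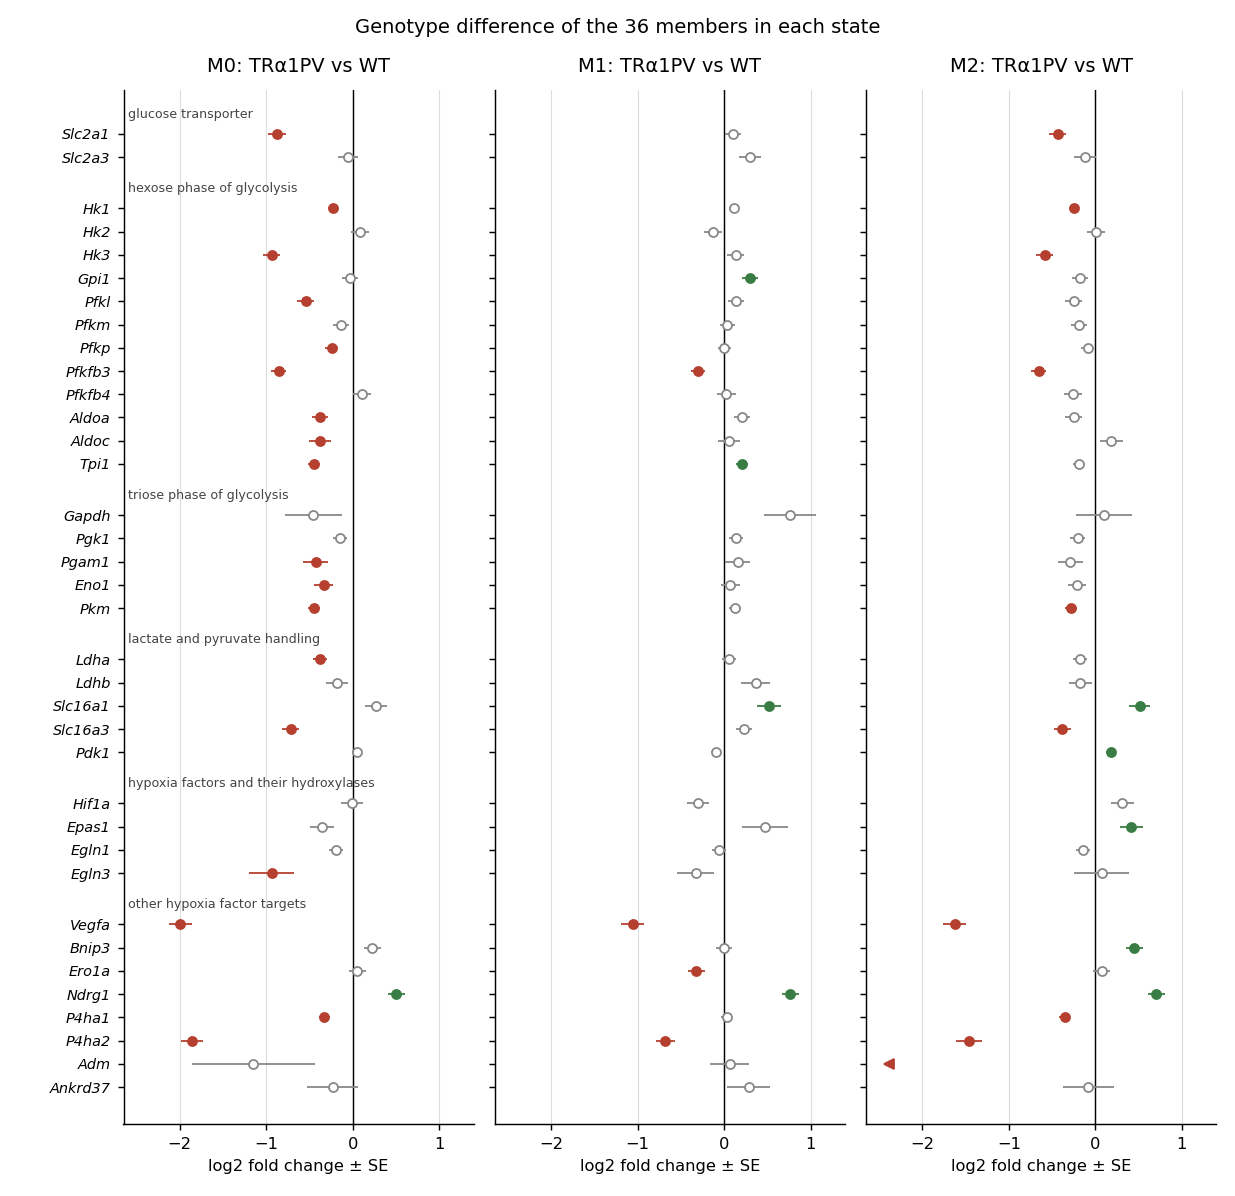
Log2 fold change of TRα1PV over WT (x axis, bars are ± SE) for the 36 genes (y axis, by role) in M0, M1 and M2; filled red points were called lower, filled green points higher, open points were not called, and Adm in M2 is drawn at its bound. In M0, 18 points are red and 1 is green; in M1 there are 4 of each, and in M2 there are 10 red and 5 green.

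A wider list of 97 genes of glycolysis, its branches and the hypoxia response held 82 tested genes, of which 26 were lower and 5 higher in M0. These are 31.7% and 6.1%, against 14% lower and 12% higher of all genes. The median log2 fold change of the 82 genes was -0.10. Higd1a and Fam162a, a pair of mitochondrial genes raised by low oxygen, fell (-0.77, adjusted p = 5.29e-06 for Higd1a; -0.36, adjusted p = 0.000393 for Fam162a). The sugar transporter genes Slc2a6 and Slc2a9 fell as well (-0.71, adjusted p = 0.000353 for Slc2a6; -0.42, adjusted p = 0.000346 for Slc2a9).

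In M1 macrophages, 4 of the 36 genes were lower and 4 higher in TRα1PV than in WT, where 20% of all genes were called, 10.2% lower and 9.74% higher. The median log2 fold change of the list was 0.09, against 0.00 for all genes tested. Lower were Vegfa, P4ha2, Pfkfb3 and Ero1a, and higher were Ndrg1, Slc16a1, Gpi1 and Tpi1. Every TRα1PV library was below every WT library for 2 genes and above for 1, against 5.91% and 5.65% of all genes.

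Vegfa in M1 stood at 169.9, 124, 150.2, 176 and 218 CPM in TRα1PV libraries, against 468, 279.9, 272, 379.8 and 343 CPM in WT libraries. The groups did not overlap, and the log2 fold change was -1.06 ± 0.13 (adjusted p = 1.32e-06). P4ha2 was at 24.3, 22.2, 25, 20.7 and 26.1 CPM in TRα1PV libraries, against 38.6, 36.2, 33, 36.4 and 45.6 CPM in WT libraries. It too separated the groups (-0.68 ± 0.11, adjusted p = 5.23e-05). Pfkfb3 was at 312, 295, 341, 303 and 329.6 CPM in TRα1PV libraries, against 450.1, 334, 375, 433 and 358 CPM in WT libraries. The groups overlapped in part (-0.30 ± 0.08, adjusted p = 0.00963).

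Ero1a, which passes electrons from new disulfides to oxygen, was at 148, 136, 136, 152 and 174 CPM in TRα1PV libraries, against 184, 160.2, 203, 188 and 194 CPM in WT libraries. The highest TRα1PV library lay within the WT range (-0.32 ± 0.09, adjusted p = 0.0165), and the call ended without TRα1PV M1 replicate 3 or WT M1 replicate 3 (adjusted p 0.0527 to 0.0557). Ndrg1 was at 115, 96.7, 118, 77.6 and 99.8 CPM in TRα1PV libraries, against 70.7, 48.5, 61.7, 60.9 and 56.4 CPM in WT libraries. Here all TRα1PV libraries were above all WT libraries (0.77 ± 0.10, adjusted p = 2.44e-06). Slc16a1, which moves lactate and pyruvate in either direction, was at 8.72, 11.8, 11.5, 10.6 and 14.5 CPM in TRα1PV libraries, against 8.71, 7.12, 8.46, 9.61 and 5.84 CPM in WT libraries. It was higher with overlap of the groups (0.52 ± 0.14, adjusted p = 0.00685).

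Gpi1 read 973, 819, 961, 695 and 821 CPM in TRα1PV libraries, against 877, 713, 602, 594 and 694 CPM in WT libraries. Tpi1 read 1199, 1034, 1168, 930.0 and 1097 CPM in TRα1PV libraries, against 989, 952, 908, 848 and 1007 CPM in WT libraries. Both were called higher with overlap (0.29 ± 0.09, adjusted p = 0.0223 for Gpi1; 0.21 ± 0.07, adjusted p = 0.0317 for Tpi1). The Gpi1 call ended without TRα1PV M1 replicate 1 or 3 or WT M1 replicate 3 or 4 (adjusted p 0.0776 to 0.0848), and the Tpi1 call without TRα1PV M1 replicate 1, 3 or 5 or WT M1 replicate 2, 3 or 4 (adjusted p 0.0517 to 0.113). With the covariate for reads outside genes in the fit, 5 members were lower and 12 higher in M1. The added calls were a lower Hif1a (-0.39, adjusted p = 0.00152) and a higher Slc2a3, Hk1, Hk3, Aldoa, Gapdh, Pgk1, Pgam1 and Slc16a3 (0.13 for Hk1 to 0.85 for Gapdh). With the replicate number as a block, Gapdh was called higher (0.74, adjusted p = 0.0256). Such reads made up 8.24 to 9.70% in TRα1PV M1 libraries and 7.55 to 9.34% in WT M1 libraries.

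The other 28 genes were not called in M1, at log2 fold changes of -0.33 to 0.76 and a smallest adjusted p of 0.0681. Hif1a was at 409.9, 483, 476, 485 and 581 CPM in TRα1PV libraries, against 564, 545, 649, 654 and 589 CPM in WT libraries, so only the highest TRα1PV library reached the WT range (-0.30 ± 0.13, adjusted p = 0.106). Slc2a1 was at 208, 158, 208, 169 and 234 CPM in TRα1PV libraries, against 239, 153, 163, 174 and 179 CPM in WT libraries, and Hk3 at 2154 to 2578 CPM in TRα1PV and 1848 to 2408 CPM in WT. For both the groups overlapped (0.11 ± 0.10, adjusted p = 0.462 for Slc2a1; 0.13 ± 0.10, adjusted p = 0.349 for Hk3). Hk2 was at 104, 82.6, 101, 101 and 143 CPM in TRα1PV libraries, against 149, 97.4, 102, 114 and 118 CPM in WT libraries. Pkm was at 2979, 2651, 2868, 2409 and 2593 CPM in TRα1PV libraries, against 2667, 2469, 2405, 2217 and 2572 CPM in WT libraries. These groups overlapped too, and Hk2 (-0.13), Pkm (0.13) and Ldha (0.05) were not called. The summed stroma markers were 10.1 to 13.8 CPM in TRα1PV M1 libraries and 12.3 to 14.9 CPM in WT M1 libraries, with 5 of the 11 tested markers lower. Of the 12 neutrophil markers tested, 1 was higher and 2 lower, with sums of 160 to 205 CPM in TRα1PV and 200 to 275 CPM in WT. Of the 4 endothelial markers tested, 2 were higher and 0 lower. Their sums did not overlap, at 91.9 to 110 CPM in TRα1PV and 66.2 to 88.9 CPM in WT. The part of these markers in the M1 values was not tested. Of the 82 other pathway genes, 6 were lower (7.3%) and 13 higher (15.9%), against 10.2% and 9.74% of all genes. Zfp395, Nfil3 and the glycogen synthase gene Gys1 rose (0.63, adjusted p = 5.6e-06; 0.51, adjusted p = 0.000259; 0.35, adjusted p = 0.000842), and Tigar, which slows glycolysis, and the kinase gene Adpgk fell (-0.44, adjusted p = 0.00126; -0.43, adjusted p = 0.00126).

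**Figure D2:**
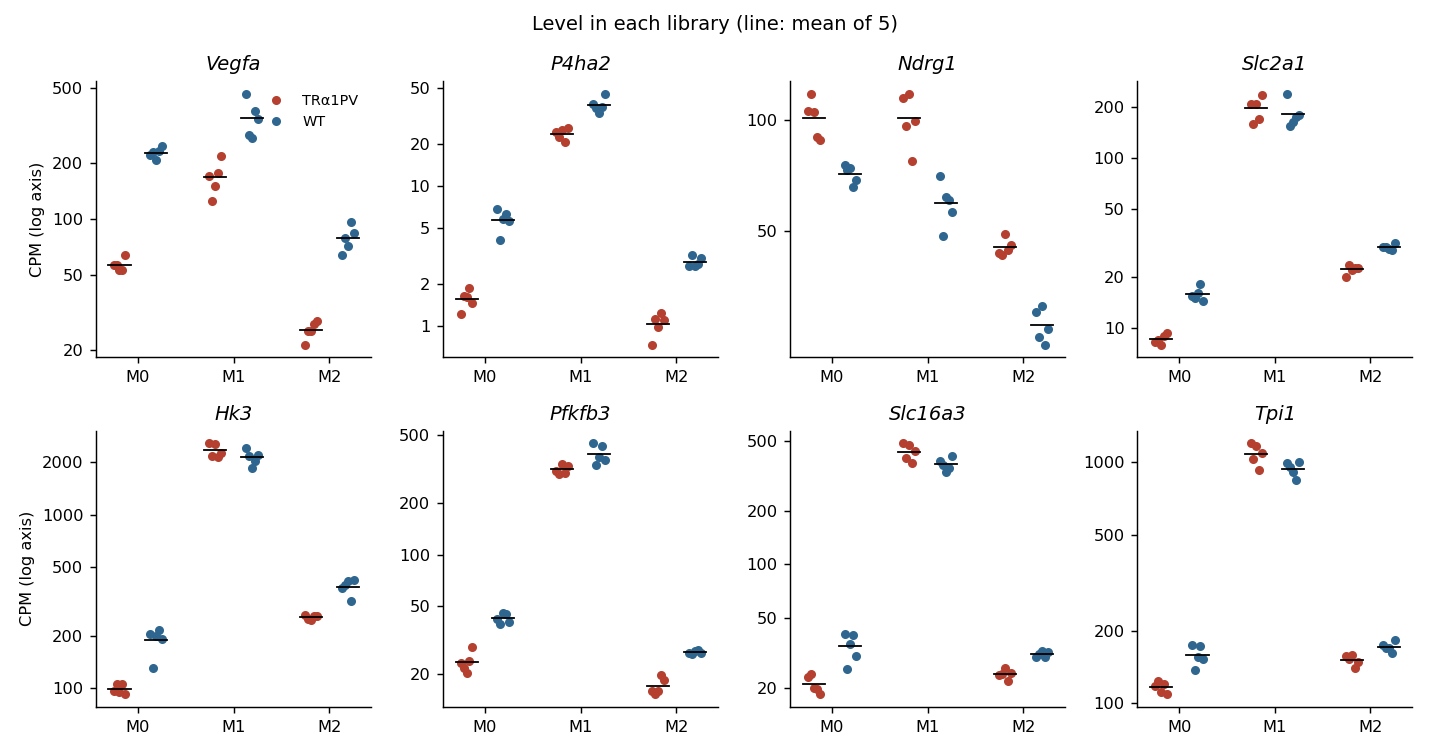
CPM (y axis, log scale) of 8 genes in every library (points) of TRα1PV (red, left) and WT (blue, right) in M0, M1 and M2 (x axis), with the mean of 5 libraries as a line. Vegfa and P4ha2 stand apart by genotype in every state, whereas Slc2a1, Hk3, Slc16a3 and Tpi1 stand apart in M0 and overlap in M1.

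In M2 macrophages, 10 genes were lower and 5 higher in TRα1PV than in WT, where 13.1% of all genes were called, 6.96% lower and 6.14% higher. The list's median log2 fold change was -0.18, against -0.01 for all genes tested. Every TRα1PV library was below every WT library for 12 genes and above for 4, against 7.87% and 5.91% of all genes. The lower genes were Vegfa, P4ha1, P4ha2, Adm, Pfkfb3, Hk1, Hk3, Pkm, Slc2a1 and Slc16a3, and the higher genes were Ndrg1, Bnip3, Slc16a1, Epas1 and Pdk1.

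Slc2a1 in M2 was at 20.1, 23.4, 22.1, 22.6 and 22.6 CPM in TRα1PV libraries, against 29.8, 30.1, 29.2, 28.8 and 31.5 CPM in WT libraries. No TRα1PV library reached the WT range (-0.43 ± 0.10, adjusted p = 0.00363). Hk3 was at 264, 248, 246, 261 and 259 CPM in TRα1PV libraries, against 376, 392, 412, 315 and 420.5 CPM in WT libraries. It also separated the groups (-0.58 ± 0.10, adjusted p = 0.000118). Pfkfb3 was at 16, 15.2, 16, 19.6 and 18.4 CPM in TRα1PV libraries, against 26.6, 26.2, 27.2, 27.7 and 26.6 CPM in WT libraries. The same was seen there (-0.65 ± 0.09, adjusted p = 4.13e-06). Pkm was at 575, 550.0, 577, 595 and 534 CPM in TRα1PV libraries, against 724, 684, 695, 631 and 717 CPM in WT libraries. It fell with groups apart (-0.29, adjusted p = 0.0064), and so did Hk1 (-0.24, adjusted p = 0.00455) and Slc16a3 (-0.38, adjusted p = 0.00935). Slc16a1 rose and also separated the groups, at 38.8 to 60.3 CPM in TRα1PV and 29.7 to 38.5 CPM in WT (0.51, adjusted p = 0.00583).

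In M2, Vegfa was at 21.3, 25.2, 25.2, 27.6 and 28.4 CPM in TRα1PV libraries, against 64, 78.8, 71.3, 96.5 and 83.7 CPM in WT libraries. The highest TRα1PV library was below the lowest WT library by a wide margin (-1.63 ± 0.14, adjusted p = 4.48e-10). P4ha2 was at 0.737, 1.12, 0.977, 1.23 and 1.11 CPM in TRα1PV libraries, against 2.68, 3.19, 2.69, 2.79 and 3.06 CPM in WT libraries. P4ha1 was at 49, 53.2, 58.3, 56.1 and 57.1 CPM in TRα1PV libraries, against 72.5, 70.4, 65.9, 68.3 and 72.3 CPM in WT libraries. Both prolyl hydroxylase genes separated the groups (-1.46 ± 0.15, adjusted p = 2.5e-08 for P4ha2; -0.35 ± 0.06, adjusted p = 0.000265 for P4ha1).

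Ndrg1 was at 43.6, 43.1, 49, 44.3 and 45.9 CPM in TRα1PV libraries, against 30.2, 25.7, 31.2, 24.6 and 27.1 CPM in WT libraries. Bnip3 was at 27.2, 28.4, 30.9, 27.8 and 26.7 CPM in TRα1PV libraries, against 19.7, 20.01, 21.3, 23.4 and 18.7 CPM in WT libraries. In both genes every TRα1PV library was above every WT library (0.70 ± 0.10, adjusted p = 1.25e-05 for Ndrg1; 0.45 ± 0.10, adjusted p = 0.00206 for Bnip3). Adm had no read in the 5 TRα1PV M2 libraries and 13 reads over the 5 WT M2 libraries. With a floor of 3 reads over the TRα1PV group this is a 5.22-fold lower level. That bound takes the 13 WT reads as exact, so their counting error and the spread between libraries are not covered. It had too few reads to be tested when only the M2 libraries entered the fit. In the fit of all 30 libraries, Adm passed the filter on low counts only through its M1 libraries.

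Epas1 was at 19.2, 24.2, 19.7, 18.4 and 21.2 CPM in TRα1PV libraries, against 11.5, 17.7, 16.1, 16.5 and 15.2 CPM in WT libraries. It was higher without overlap (0.41 ± 0.13, adjusted p = 0.0366), and the call ended without TRα1PV M2 replicate 2 or 5 or WT M2 replicate 1, 3 or 5 (adjusted p 0.0565 to 0.126). Pdk1 rose by a small step (0.18 ± 0.06, adjusted p = 0.0382), a call that ended without TRα1PV M2 replicate 2, 3 or 5 or WT M2 replicate 2, 3 or 5 (adjusted p 0.0604 to 0.129). Both calls also ended with the covariate for reads outside genes (0.36, adjusted p = 0.0914 for Epas1; 0.17, adjusted p = 0.0606 for Pdk1). Hif1a was at 214, 301, 301, 241 and 271 CPM in TRα1PV libraries, against 187, 221, 207, 256 and 199.9 CPM in WT libraries, with overlapping groups and no call (0.31 ± 0.13, adjusted p = 0.113). Ldha was at 338, 320.5, 302, 321 and 299.6 CPM in TRα1PV libraries, against 366, 367, 367, 316 and 377 CPM in WT libraries, and Hk2 at 38.5 to 46.4 CPM in TRα1PV and 35.6 to 43.9 CPM in WT. Neither was called (-0.18 for Ldha and 0.01 for Hk2), and the 21 uncalled genes had log2 fold changes of -0.29 to 0.31 with a smallest adjusted p of 0.0700. Of the stroma markers, 7 were lower and 1, Fn1, was higher; the sum without Fn1 was 4.28 to 7.21 CPM in TRα1PV and 6.33 to 18.7 CPM in WT. Of the 12 neutrophil markers tested, 6 were higher and 2 lower in M2, with sums of 271 to 387 CPM in TRα1PV and 343 to 422 CPM in WT. Of the 4 endothelial markers tested, 3 were higher and 1 lower; their sums did not overlap, at 227 to 287 CPM in TRα1PV and 157 to 212 CPM in WT, and Tek and Emcn had no read in TRα1PV. The part of these markers in the M2 values was not tested. Of the 82 other pathway genes, 10 were lower (12.2%) and 7 higher (8.5%), against 6.96% and 6.14% of all genes. Adpgk, Slc2a6, Higd1a and the collagen cross-linking gene Lox fell (-0.46, adjusted p = 0.000238; -0.76, adjusted p = 0.000268; -0.60, adjusted p = 0.00027; -1.94, adjusted p = 0.000784), and Pdp1, a phosphatase that opposes Pdk1, rose (0.42, adjusted p = 0.00111).

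Across the 3 states, Vegfa, P4ha2 and Pfkfb3 were lower and Ndrg1 was higher in TRα1PV each time. Tpi1 was called in opposite directions, lower in M0 and higher in M1. Slc2a1, Hk1, Hk3, Pkm, Slc16a3 and P4ha1 were called lower in M0 and M2, and the 8 genes Aldoa, Aldoc, Egln3, Eno1, Ldha, Pfkl, Pfkp and Pgam1 in M0 alone. No state gave a call for Ankrd37, Egln1, Gapdh, Hif1a, Hk2, Ldhb, Pfkfb4, Pfkm, Pgk1 or Slc2a3. The summed level of the 17 glycolytic enzyme genes with Ldha and Ldhb was 2213 to 2554 CPM in TRα1PV M0 libraries and 2545 to 3280 CPM in WT M0 libraries. In M1 it was 12053 to 15373 CPM in TRα1PV and 11437 to 13959 CPM in WT, and in M2 it was 3295 to 3613 CPM in TRα1PV and 3582 to 4247 CPM in WT. So the sums overlapped in all 3 states, by a narrow margin in M0 and M2. In M0 only WT replicate 2 (2545 CPM) lay within the TRα1PV range, the other WT libraries being at 2846 CPM or more. In M2 only WT replicate 4 (3582 CPM) did, the other WT libraries being at 4058 CPM or more.

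Whether the genotype effect itself differed between states was tested as an interaction. The effect in M1 minus that in M0 was positive for 17 of the 36 genes and negative for 1, where 26.6% of all genes were called, 13.3% positive and 13.3% negative. Its median over the list was 0.43 on the log2 scale, against 0.02 over all genes tested. The 17 genes are Slc2a1, 6 genes of the hexose phase, 4 of the triose phase, Ldha, Slc16a3, Epas1, Vegfa, P4ha1 and P4ha2.

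Hk3 had a genotype effect of 0.13 in M1 and -0.94 in M0, a difference of 1.07 ± 0.14, adjusted p = 5.84e-06. Slc2a1 had 0.11 in M1 and -0.88 in M0 (difference 0.98 ± 0.14, adjusted p = 1.9e-05). For Slc16a3 the effects were 0.23 and -0.72 in M1 and M0 (difference 0.95 ± 0.14, adjusted p = 1.9e-05). In these genes the lower level of TRα1PV in M0 was not called in M1. P4ha2 and Vegfa were lower in both states, by less in M1 (differences of 1.18 ± 0.17, adjusted p = 2.07e-05 for P4ha2 and 0.94 ± 0.18, adjusted p = 0.000556 for Vegfa). The same held for Pfkfb3 (0.55 ± 0.12, adjusted p = 0.00132).

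Other enzymes moved the same way. The differences were 0.68, adjusted p = 0.000599 for Pfkl, 0.65, adjusted p = 2.98e-05 for Tpi1, 0.58, adjusted p = 0.000137 for Pkm and 0.58, adjusted p = 0.00251 for Aldoa. Ldha had 0.43, adjusted p = 0.00688, Hk1 0.34, adjusted p = 0.00332 and P4ha1 0.36, adjusted p = 0.00412. Gapdh (1.22 ± 0.44, adjusted p = 0.0406), Pgam1 (0.58 ± 0.20, adjusted p = 0.0346), Eno1 (0.41 ± 0.15, adjusted p = 0.0415) and Epas1 (0.83 ± 0.30, adjusted p = 0.0401) were near the threshold. Ero1a was the gene with a negative difference (-0.37 ± 0.14, adjusted p = 0.0416), with a genotype effect of -0.32 in M1 and 0.05 in M0.

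These 5 calls ended when single libraries were left out. Gapdh was lost without TRα1PV M0 replicate 3, 4 or 5, TRα1PV M1 replicate 1 or 5, WT M0 replicate 1, 3 or 4 or WT M1 replicate 2, 3, 4 or 5 (adjusted p 0.0517 to 0.144). Pgam1 was lost without TRα1PV M0 replicate 3 or 4, TRα1PV M1 replicate 1 or 3, WT M0 replicate 1, 3, 4 or 5 or WT M1 replicate 3 or 4 (adjusted p 0.0526 to 0.076). Eno1 was lost without TRα1PV M0 replicate 3, 4 or 5, TRα1PV M1 replicate 1 or 3, WT M0 replicate 1, 3 or 4 or WT M1 replicate 3 or 4 (adjusted p 0.0656 to 0.094). Epas1 was lost without TRα1PV M0 replicate 3 or 4, TRα1PV M1 replicate 1, 2 or 3, WT M0 replicate 4 or 5 or WT M1 replicate 1, 2, 3 or 5 (adjusted p 0.0503 to 0.0967). Ero1a was lost without TRα1PV M0 replicate 1, 3, 4 or 5, TRα1PV M1 replicate 1, 2 or 3, WT M0 replicate 1 or 4 or WT M1 replicate 3, 4 or 5 (adjusted p 0.0504 to 0.114). With reads outside genes as a covariate, 14 differences were positive and 0 negative, since Gapdh, Pgam1, Eno1 and Ero1a were no longer called (adjusted p 0.0847 to 0.133). The replicate block added Gpi1 (0.34, adjusted p = 0.0163), Pgk1 (0.29, adjusted p = 0.049) and Ldhb (0.53, adjusted p = 0.0403), and without WT M0 replicate 2, 21 were positive and 3 negative.

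The effect in M2 minus that in M0 was called for 1 gene, Epas1, and was positive, where 2.16% of all genes were called and 0.701% were positive. The genotype effect on Epas1 was 0.41 in M2 and -0.36 in M0, a difference of 0.77 ± 0.19, adjusted p = 0.0224. This call ended without TRα1PV M0 replicate 3, TRα1PV M2 replicate 2, WT M0 replicate 4 or 5 or WT M2 replicate 1 (adjusted p 0.051 to 0.0627). Without WT M0 replicate 2, 3 genes were called positive. No negative difference was called by edgeR, DESeq2 or limma-voom (0 genes). At an unadjusted p under 0.05 in edgeR, 8 were positive and 2 negative. With the covariate for reads outside genes, Pfkfb4 was called negative (-0.46, adjusted p = 0.0149). The list's median difference was 0.16. Both interactions use the same M0 libraries.

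In M1 most of the list rose. In M1 against M0, 29 genes were higher and 3 lower in TRα1PV cells, and 29 were higher and 6 lower in WT cells. Calls in either direction thus made up 88.9% of the list in TRα1PV and 97.2% in WT. Of all genes, 80.7% were called in TRα1PV, 40% higher and 40.7% lower, and 79.6% in WT, 39.4% higher and 40.2% lower. The same 29 genes rose in both genotypes, and no gene was called in opposite directions. The list's median log2 fold change was 2.35 in TRα1PV and 1.97 in WT, against -0.02 for all genes tested in either genotype. With every M1 library set against every M0 library of its genotype, 29 genes were apart upwards and 3 downwards in TRα1PV, and 28 and 4 in WT, where the shares of all genes were 35% and 35.1% in TRα1PV, and 31.5% and 30.3% in WT.

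Slc2a1, at 158 to 234 CPM in M1 and 7.99 to 9.32 CPM in M0 libraries of TRα1PV, rose by 4.51 ± 0.11 on the log2 scale (adjusted p = 3.76e-25). In WT it was at 153 to 239 CPM in M1 and 14.5 to 18 CPM in M0 (3.52 ± 0.11, adjusted p = 5.12e-23). The M1 libraries of both genotypes were thus far above their M0 libraries. Hk3 in M1 was at 2578, 2179.7, 2555, 2154 and 2269 CPM in TRα1PV libraries, against 2408, 2180.3, 1848, 2034 and 2218 CPM in WT libraries. Its rise over M0 was 4.58 ± 0.11 in TRα1PV and 3.51 ± 0.11 in WT. Slc16a3 in M1 was at 486, 400.4, 474, 375 and 441 CPM in TRα1PV libraries, against 387, 367, 336, 349.9 and 411 CPM in WT libraries. Its rise was 4.38 ± 0.11 in TRα1PV and 3.43 ± 0.10 in WT.

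Adm was all but silent in M0, and in M1 it was at 5.52, 4.09, 5.47, 3.59 and 7.25 CPM in TRα1PV libraries, against 6.11, 4.36, 4.80, 4.31 and 5.21 CPM in WT libraries. All M1 libraries lay above all M0 libraries. Adm passed the filter on low counts only through these M1 libraries, so its rise, though counted with the others, is a description. With 741 reads in M1 and 7 in M0 for TRα1PV, and 690 and 13 for WT, its fitted log2 fold changes of 7.35 and 6.13 rest on few M0 reads. P4ha2 rose by 3.91 ± 0.13 in TRα1PV and 2.73 ± 0.12 in WT, Pfkfb3 by 3.75 ± 0.09 and 3.20 ± 0.09, and Ankrd37 by 3.81 ± 0.28 and 3.30 ± 0.28, in the same order of genotypes. Hif1a itself rose by 1.57 ± 0.13 in TRα1PV and 1.86 ± 0.14 in WT. All 5 genes of the triose phase rose, the log2 fold changes running from 2.54 for Eno1 to 3.70 for Gapdh in TRα1PV and from 2.00 for Pgam1 to 2.95 for Pgk1 in WT. Ldha, at 1776, 1524, 1659, 1387 and 1603 CPM in TRα1PV M1 libraries and 1682, 1515, 1421, 1472 and 1572 CPM in WT M1 libraries, rose by 3.16 ± 0.09 in TRα1PV and 2.73 ± 0.09 in WT.

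The other 15 of the 29 genes rose as well. Among enzymes of the hexose phase the log2 fold changes were 1.99 in TRα1PV and 1.66 in WT for Hk1, 1.02 and 1.24 for Hk2, 1.20 and 0.87 for Gpi1 and 2.10 and 1.42 for Pfkl. They were 2.97 in TRα1PV and 2.72 in WT for Pfkp, 1.43 and 0.85 for Aldoa, 0.75 and 0.31 for Aldoc and 3.22 and 2.57 for Tpi1. For Pdk1, the hydroxylases and the other targets they were 0.14 in TRα1PV and 0.29 in WT for Pdk1, 0.53 and 0.39 for Egln1 and 3.56 and 2.95 for Egln3, and 1.56 in TRα1PV and 0.62 in WT for Vegfa, 2.57 and 2.80 for Bnip3, 2.42 and 2.80 for Ero1a and 2.28 and 1.93 for P4ha1.

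The 3 genes that fell in M1 in both genotypes are Epas1, Ldhb and Pfkfb4. Epas1 in M1 was at 0.682, 0.786, 0.715, 0.416 and 0.432 CPM in TRα1PV libraries, against 0.444, 0.447, 0.308, 0.706 and 0.237 CPM in WT libraries. It fell by 3.34 in TRα1PV (adjusted p = 1.92e-16) and by 4.18 in WT (adjusted p = 2.79e-18), opposite to Hif1a. Ldhb, whose enzyme form favours the way from lactate to pyruvate, had log2 fold changes of -2.26 ± 0.15 in TRα1PV and -2.81 ± 0.15 in WT, opposite to Ldha. Pfkfb4 had -0.86 ± 0.11 in TRα1PV and -0.78 ± 0.11 in WT, opposite to Pfkfb3.

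Slc2a3, Ndrg1 and Pfkm fell in WT M1 cells (-0.43, adjusted p = 0.00238; -0.26, adjusted p = 0.017; -0.24, adjusted p = 0.0199), and in TRα1PV they were not called (-0.07, 0.00 and -0.06). The difference between the genotypes was not called for these 3 genes (smallest adjusted p = 0.129). The Ndrg1 call ended without WT M1 replicate 2 (adjusted p = 0.0723), and the Pfkm call without WT M0 replicate 1 or 4 or WT M1 replicate 2 or 3 (adjusted p 0.0634 to 0.0838). Small rises of 2 more genes rested on single libraries. That of Aldoc in WT ended without WT M0 replicate 1, 2 or 3 or WT M1 replicate 1 (adjusted p 0.0609 to 0.138), and that of Pdk1 in TRα1PV without TRα1PV M0 replicate 4 or TRα1PV M1 replicate 3 or 5 (adjusted p 0.0563 to 0.0824). Both rises also ended with the covariate for reads outside genes (adjusted p = 0.245 for Aldoc and 0.0756 for Pdk1), under which Pfkm was called lower in TRα1PV (-0.32, adjusted p = 0.00554). Slc16a1 was called in neither genotype. Without WT M0 replicate 2, 28 genes were higher and 6 lower in WT.

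**Figure D3:**
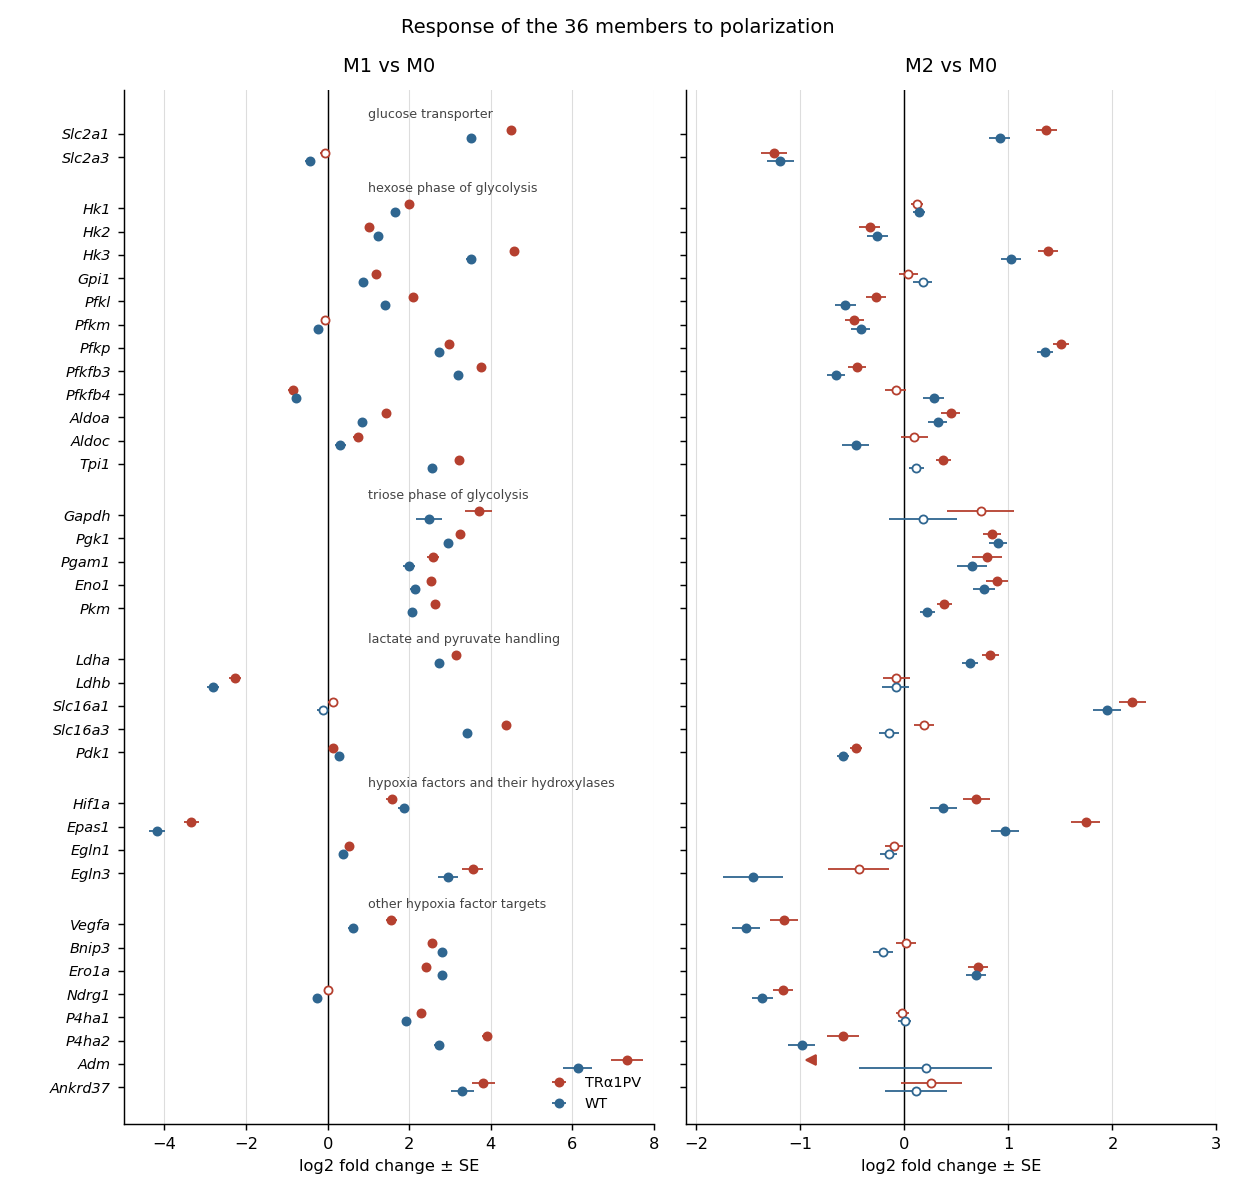
Log2 fold change (x axis, bars are ± SE) of M1 over M0 and of M2 over M0 for the 36 genes (y axis), TRα1PV in red above WT in blue, filled points called and open points not called; Adm in TRα1PV M2 is drawn at its bound. In M1, 29 genes lie to the right in both genotypes, whereas in M2 the calls run both ways.

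The response to interleukin-4 was divided. In M2 against M0, 14 genes were higher and 10 lower in TRα1PV cells, and 15 were higher and 11 lower in WT cells. Of all genes, 57.7% were called in TRα1PV, 28.3% higher and 29.4% lower, and 52.4% in WT, 25.2% higher and 27.2% lower. The list's median log2 fold change was 0.11 in TRα1PV and 0.13 in WT. In both genotypes 13 genes rose and 9 fell, and none was called in opposite directions. Every M2 library was above every M0 library for 14 genes and below for 8 in TRα1PV, and for 11 and 11 in WT, against 23.8% and 23.4% of all genes in TRα1PV and 18% and 17.5% in WT.

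Slc16a1 rose most in M2, to 60.3, 54.8, 43, 42.1 and 38.8 CPM in TRα1PV, against 10.7, 9.75, 11, 11.1 and 9.59 CPM in M0. In WT it was at 30.9, 37.9, 29.7, 38.5 and 30.4 CPM in M2, against 7.82, 8.80, 9.23, 7.74 and 9.79 CPM in M0. The states were apart in both genotypes (2.19 ± 0.13, adjusted p = 5.35e-15 in TRα1PV; 1.95 ± 0.13, adjusted p = 1.5e-13 in WT). Epas1, which is known to act in alternative activation of macrophages, rose by 1.74 ± 0.14 in TRα1PV and 0.97 ± 0.14 in WT. Pfkp rose by 1.51 ± 0.08 in TRα1PV and 1.35 ± 0.08 in WT, Hk3 by 1.38 ± 0.10 and 1.03 ± 0.10, and Slc2a1 by 1.36 ± 0.10 and 0.92 ± 0.10. Pgk1, Pgam1, Eno1, Pkm and Ldha also rose in both genotypes, by 0.22 to 0.90 on the log2 scale in WT.

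Vegfa fell in M2, with log2 fold changes of -1.15 ± 0.13 in TRα1PV and -1.52 ± 0.13 in WT. Ndrg1 and Slc2a3 fell too (-1.17 ± 0.10 in TRα1PV and -1.37 ± 0.10 in WT for Ndrg1; -1.26 ± 0.13 and -1.19 ± 0.13 for Slc2a3). P4ha2 had -0.59 ± 0.15 in TRα1PV and -0.99 ± 0.13 in WT, and Pfkm -0.48 ± 0.09 and -0.42 ± 0.09. Egln3 fell in WT (-1.45 ± 0.29, adjusted p = 9.16e-05) and was not called in TRα1PV (-0.44 ± 0.29, adjusted p = 0.199); the difference between the genotypes was not called (adjusted p = 0.274). Adm had 0 reads in TRα1PV M2 and 7 in TRα1PV M0, a 1.87-fold lower level with a floor of 3 reads and the 7 reads taken as exact. Adm passed the filter on low counts only through its M1 libraries. It was called lower, a call that ended without TRα1PV M0 replicate 1 or 5 or TRα1PV M2 replicate 1, 2, 4 or 5 (adjusted p 0.0501 to 0.11).

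Smaller changes called in both genotypes were rises of 0.69 in TRα1PV and 0.37 in WT for Hif1a, 0.71 and 0.69 for Ero1a and 0.44 and 0.32 for Aldoa, and falls with log2 fold changes of -0.46 in TRα1PV and -0.59 in WT for Pdk1, -0.46 and -0.66 for Pfkfb3, -0.27 and -0.57 for Pfkl and -0.33 and -0.26 for Hk2. Calls in 1 genotype were Tpi1 in TRα1PV (0.38, adjusted p = 2.63e-05), and Hk1 (0.14, adjusted p = 0.0425), Pfkfb4 (0.28, adjusted p = 0.0235) and Aldoc (-0.47, adjusted p = 0.00372) in WT; none of these 4 genes had a called difference between the genotypes. Not called in either were Ankrd37, Bnip3, Egln1, Gapdh, Gpi1, Ldhb, P4ha1 and Slc16a3. With the covariate for reads outside genes, the calls of Pgam1, Aldoa and Hk2 ended in both genotypes (adjusted p 0.0779 to 0.388), and those of Hk1, Pfkfb4 and Pkm in WT (adjusted p 0.206 to 0.817). It added a fall of Pfkfb4 (-0.43) and a rise of Bnip3 (0.28) in TRα1PV and a fall of Slc16a3 (-0.36) in WT. The replicate block added a rise of Gapdh in TRα1PV (0.73, adjusted p = 0.0185) and of Gpi1 in WT (0.17, adjusted p = 0.0476), and the block within genotype ended the calls of Hk1 and Hk2 in WT (adjusted p 0.0516 and 0.0543).

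Some smaller M2 calls rested on single libraries. In WT, Hk1 was lost without WT M0 replicate 2, 3 or 5 or WT M2 replicate 1, 3 or 5 (adjusted p 0.0639 to 0.132) and Hk2 without WT M0 replicate 2, 4 or 5 or WT M2 replicate 1, 2 or 3 (adjusted p 0.052 to 0.114). Pfkfb4 was lost without WT M0 replicate 2 or WT M2 replicate 2 or 5 (adjusted p 0.0619 to 0.0922) and Hif1a without WT M0 replicate 1 or 4 or WT M2 replicate 4 (adjusted p 0.0588 to 0.0711). In TRα1PV, Pfkl was lost without TRα1PV M0 replicate 2 (adjusted p = 0.0886). Without WT M0 replicate 2, 13 genes were higher and 11 lower in WT.

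Several steps are served by alternative genes, whose shares were taken from CPM per kilobase of exon. Exon lengths came from the mouse annotation at hand, which is of an earlier build than the counts. Each length joins all annotated exons of a gene and can exceed that of the expressed transcript, so the shares depend on it. These shares are descriptions with the SD over 5 libraries. Hk3 made up 56.9% ± 0.722 of hexokinase transcripts (with Hk1 and Hk2) in TRα1PV M0 libraries and 69.9% ± 4.53 in WT M0 libraries. In M1 its share was 91% ± 0.557 in TRα1PV and 90.4% ± 0.571 in WT, and in M2 78.2% ± 0.739 in TRα1PV and 82.7% ± 1.61 in WT. So Hk3 led in each group, and most in M1. Slc2a1 held 60.4% ± 4.45 of the pair with Slc2a3 in TRα1PV M0 and 72.9% ± 1.84 in WT M0. Without the division by length, Slc2a1 averaged 8.61 CPM and Slc2a3 11.7 CPM in TRα1PV M0, and 15.8 and 12.2 CPM in WT M0. In M2 its share was 90.3% ± 1.46 in TRα1PV and 92% ± 0.893 in WT, and in M1 97.2% ± 0.772 and 97.6% ± 0.552.

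The lactate carriers changed places between stimulated states. Slc16a3 held 96.9% ± 0.648 of the pair in TRα1PV M1 and 97.5% ± 0.592 in WT M1. In M2, Slc16a1 held the larger part, 70.3% ± 4.11 in TRα1PV and 56.3% ± 3.63 in WT. Pfkfb3 made up 85.8% ± 1.04 of its pair in TRα1PV M1 and 88.2% ± 1.79 in WT M1. Pfkfb4 led in M0 (80.01% ± 3.55 in TRα1PV and 67.3% ± 2.79 in WT) and in M2 (83.9% ± 2.40 and 79.8% ± 2.17).

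Among phosphofructokinase subunits, Pfkp held 53.4% ± 1.82 in TRα1PV M1 and 55.4% ± 1.44 in WT M1, and 57.2% ± 2.31 and 55% ± 1.64 in M2. In M0, Pfkm held 40.04% ± 1.43 in TRα1PV and 35.3% ± 1.41 in WT, and Pfkl 33.4% ± 2.59 in TRα1PV and 39.2% ± 2.01 in WT. By this measure the largest share was that of Pfkm in TRα1PV and that of Pfkl in WT. The order rests on the lengths used, 13401 bases for Pfkp, 6675 for Pfkl and 3340 for Pfkm. In CPM, Pfkp had the highest M0 mean in both genotypes. The means of Pfkp, Pfkl and Pfkm were 56.0, 35.2 and 21.1 CPM in TRα1PV and 66.3, 51.2 and 23.1 CPM in WT. Ldha held 91.8% ± 1.44 of the pair with Ldhb in TRα1PV M0 and 92.8% ± 1.28 in WT M0, and more in M1 and M2. Hif1a held 96.2% ± 0.625 of the pair with Epas1 in TRα1PV M0 and 95% ± 1.37 in WT M0. In M2 its share was 92.4% ± 0.772 in TRα1PV and 92.9% ± 0.769 in WT. P4ha2 was the minor subunit throughout, at 1.82% ± 0.167 of the pair with P4ha1 in TRα1PV M0 and 5.13% ± 0.813 in WT M0, and at most 8.61% ± 0.863 in WT M1, where TRα1PV had 5.47% ± 0.269.

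**Figure D4:**
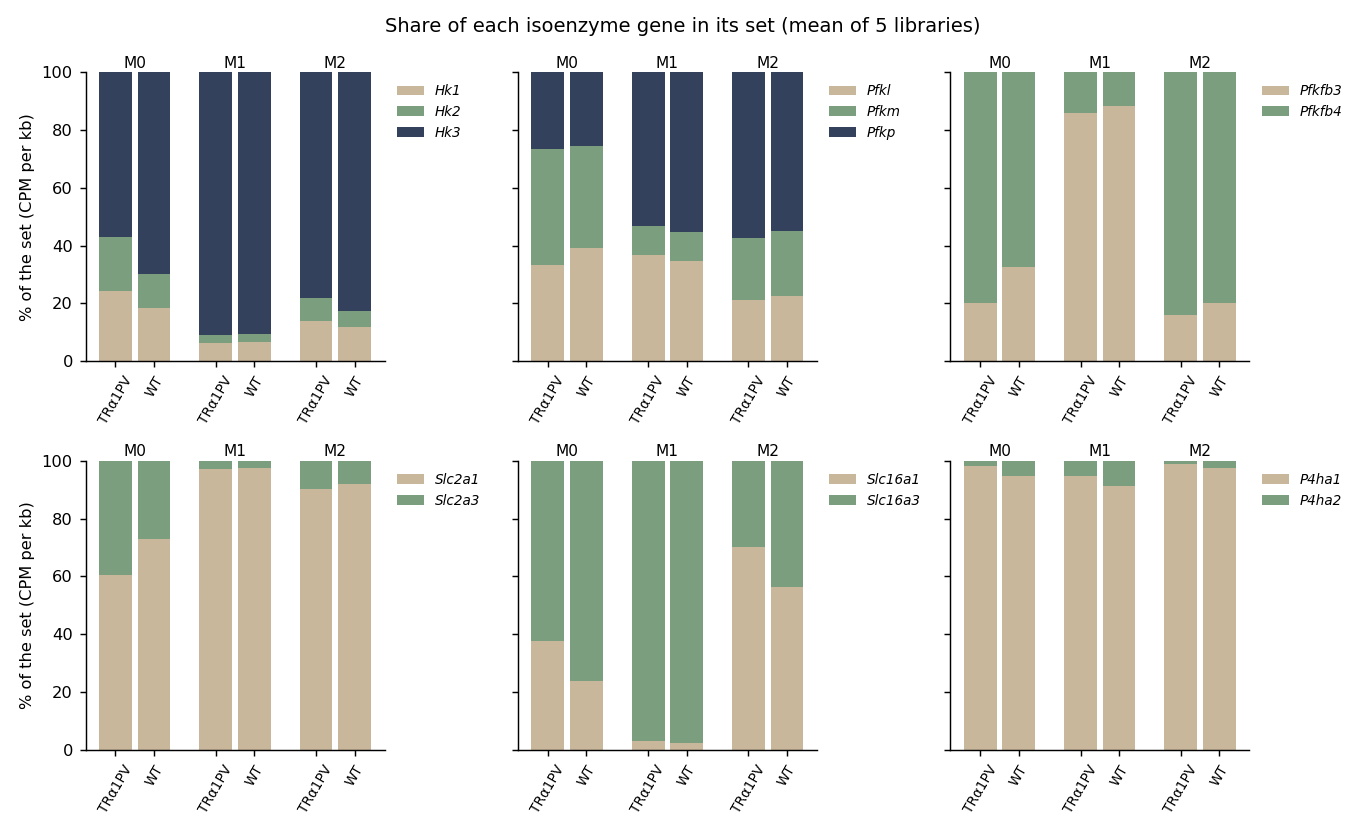
Share of each alternative gene in its set (y axis, % of the summed CPM per kilobase, mean of 5 libraries, stacked bars) in the 6 groups (x axis, TRα1PV left of WT in each state) for 6 sets. Hk3, Slc2a1, Pfkfb3 and Slc16a3 fill most of the bar in M1, and Slc16a1 and Pfkfb4 the larger part in M2.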

How the data were processed

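Bulk polyA RNA libraries were analysed. The authors deposited raw read counts per Ensembl gene, made with HTSeq 1.99.2; Trimmomatic 0.39, HISAT2 2.2.1, FastQC 0.11.9 and GRCm39 are also named, per the submitters' processing notes. Strand and multi-mapping settings are not stated in the sources used here, so overlapping and antisense genes may share reads. Rows of reads in no gene held 22.0 to 28.1% of reads and were left out.

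From these counts, genes were kept with filterByExpr (minimum count 10, total 15) and scaled by TMM. A single edgeR 4.0.16 quasi-likelihood fit over all 30 libraries tested each comparison in R 4.3.3, called at an adjusted p under 0.05 (Benjamini-Hochberg over 15686 genes, two-sided, no minimum fold). The SE is the absolute log2 fold change over the root of F. The fit was tested on simulated data. Alternatives were DESeq2 1.42.0, limma-voom (limma 3.58.1), other scaling, no filter, compared groups only, covariates, blocks and single libraries left out. Replicates were compared and no duplicates were found.

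The members and lists were chosen with earlier results of these data known. Every member is accounted for; values per library are given for up to 8 called members with the smallest p per genotype comparison and for 8 core genes, and for state comparisons the 5 largest changes each way are named. Of the other pathway genes, up to 5 called with the smallest p are named, and 1 result that this rule would name is not reported here. Figures were drawn with matplotlib 3.10.9.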

Additional observations from a re-analysis of the deposited data

Results flagged for a closer look

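Of 216 sets of 5 libraries (36 genes in 6 groups), 13 had a library whose gap to its nearest neighbour took more than 0.71 of the set's range, Dixon's 95% critical value; chance alone flags about 1 in 20 sets. In WT M0, replicate 2 was low for Pgam1 (37.8 CPM, against 78.4 to 84.2 CPM in the others) and high for Hif1a (251 CPM, against 125 to 160.4 CPM). In WT M2, replicate 4 was low for Pgam1 (87.6 CPM, the others at 117 CPM or more), Pgk1 (243 CPM, the others at 288 CPM or more) and Ldha (316 CPM, the others at 366 CPM or more). WT M2 replicate 3 was low for Ldhb (6.91 CPM), and WT M2 replicate 2 was high for Egln1 (37.2 CPM). Gapdh was high in TRα1PV M2 replicate 4 (14.5 CPM, the others up to 7.78 CPM), in WT M1 replicate 1 (79.6 CPM, the others up to 35.6 CPM) and in WT M2 replicate 1 (9.55 CPM, the others up to 7.97 CPM). The last were Eno1 in TRα1PV M2 replicate 1 (401 CPM), Ankrd37 in TRα1PV M1 replicate 3 (35.6 CPM) and Egln3 in WT M1 replicate 1 (31.9 CPM, the others up to 15.9 CPM).

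The genotype effect differed between M1 and M0 by the interaction test of edgeR for 18 genes, on the log2 scale and as M1 minus M0. The differences were 0.98 for Slc2a1, 1.07 for Hk3, 0.34 for Hk1, 0.68 for Pfkl, 0.55 for Pfkfb3, 0.58 for Aldoa and 0.65 for Tpi1. They were 1.22 for Gapdh, 0.58 for Pgam1, 0.41 for Eno1, 0.58 for Pkm, 0.43 for Ldha and 0.95 for Slc16a3. Among hypoxia factors and targets they were 0.83 for Epas1, 0.94 for Vegfa, 0.36 for P4ha1, 1.18 for P4ha2 and -0.37 for Ero1a. Between M2 and M0 the effect differed for Epas1, by 0.77.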

How the results depend on the processing

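No called value of a member changed its sign under any alternative run. Of 178 calls of members over all comparisons, 148 were kept under every alternative other than leaving out a library, 153 with each library left out in turn, and 144 in both. Counts given here are members called in TRα1PV against WT or in the state named. With single libraries left out, the M0 counts were 1 to 2 higher and 15 to 19 lower, the M1 counts 2 to 7 higher and 3 to 5 lower, and the M2 counts 3 to 5 higher and 10 to 13 lower. The M1 higher count was 2 without TRα1PV M1 replicate 1 or 3 or WT M1 replicate 3 or 4, and 7 without TRα1PV M1 replicate 4; the M2 higher count was 3 without TRα1PV M2 replicate 2 or 5 or WT M2 replicate 3 or 5. For M1 against M0 the counts were 28 to 29 higher and 3 lower each time in TRα1PV, and 28 to 29 higher and 4 to 6 lower in WT. For M2 against M0 they were 14 to 15 higher and 9 to 10 lower in TRα1PV, and 13 to 14 higher and 10 to 12 lower in WT. The interaction of M1 and M0 gave 13 to 21 positive and 0 to 3 negative genes, and that of M2 and M0 gave 0 to 3 positive and 0 negative each time. With only the compared groups in the fit, M1 gave 2 higher, M2 gave 17 lower, and the interactions gave 0 negative (M1) and 2 positive (M2). With reads outside genes as a covariate, 2 were higher in M0, 12 in M1 and 3 in M2, and the interactions gave 0 negative (M1) and 1 negative (M2). Without both M0 libraries numbered 2, 2 were higher in M0, and the interactions gave 3 negative (M1) and 4 positive (M2). The cause of these shifts was not tested.

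The labels give the replicate number under a batch tag and do not say that equal numbers share an animal. Correlations of same-numbered deviations from the group means ran from -0.374 to 0.331, so not every pair deviated together. For TRα1PV M2 and M0 their mean was 0.184, against -0.0459 for other numbers, and the best match was the equal number for 4 of 5 libraries; in the remaining pairs of groups it was for 1 to 3 of 5. With the number as a replicate block, M0 gave 1 higher and 19 lower, M1 gave 5 and 4, and M2 gave 5 and 10. The block gave 29 higher and 3 lower for M1 against M0 in TRα1PV, 29 and 6 in WT, 15 and 10 for M2 against M0 in TRα1PV, and 16 and 11 in WT. The interactions gave 20 positive and 1 negative gene for M1 under the block (21 and 0 with the block within genotype) and 1 and 0 for M2. The block over all libraries ended no call of a member. Depth limits Adm, Egln3, Epas1 in M1 and Ankrd37 in M0 and M2 most, since these had few reads.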
